A study of Mus musculus with 3 samples.

Results

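The 8 genes described here encode the core of MHC class II presentation in mouse. H2-Aa, H2-Ab1 and H2-Eb1 encode chains of the class II molecules, Cd74 the invariant chain, H2-DMa and H2-DMb1 the peptide editor H2-DM, Ifi30 a lysosomal thiol reductase and Ciita the class II transactivator. They were chosen by name, as a pathway and not by their values, although earlier results of these data were known. All 8 were found among the 55536 annotated genes of the tables, 1 gene for each symbol.

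All 3 libraries came from one experimental group. Bone-marrow-derived macrophages, which are grown in culture from marrow of C57BL/6J mice, received 100 ng/ml Lipid A for 12 hours, were kept for 12 hours after it had been washed out, and were given 100 ng/ml Lipid A again for 40 minutes. Toll-like receptor 4 recognises Lipid A, the membrane anchor of bacterial lipopolysaccharide. Total RNA of the cytosolic fraction was sequenced after ribosomal RNA depletion, and the libraries are numbered as biological replicates 1, 2 and 3. Untreated cells and cells stimulated once were not analysed here, so every value is a level in restimulated macrophages, and no value is a response to Lipid A. The replicates share a donor label, and whether they came from separate animals is not given in the sources used here, so their spread may in part be technical.

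MHC class II molecules are pairs of an alpha and a beta chain that carry peptides from endocytosed proteins to the cell surface, where CD4 T cells read them. The chains assemble in the endoplasmic reticulum with the invariant chain Cd74, which is cut away in endosomes by cathepsins, and H2-DM then exchanges the remaining fragment for peptide. Ciita is recruited by factors bound to short promoter elements, the X and Y boxes, and is the master regulator of these genes, which macrophages express at low levels until interferon gamma induces them.

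Expected counts on annotated genes summed to 38197192, 46327891 and 38685666 in replicates 1, 2 and 3. TPM values are per transcript length and are shares of all RNA in a table. In the gene table the 7SL RNA alone held 54.4%, 63.0% and 56.4% of TPM, and nuclear protein-coding genes held 33.3%, 28.1% and 27.7%. TPM of a messenger RNA thus also depends on how much 7SL RNA is counted in a library. A second quantification of the same libraries, made from the reads without an alignment file, gave 7SL RNA 12.8%, 23.3% and 15.6% of TPM. The share of 7SL RNA therefore depends on the method. The libraries differed from each other by more than sampling noise, with a chi-square per degree of freedom of 39.3 to 97.2 between pairs, and none was a copy of another. All 10 macrophage markers checked, Lyz2, Csf1r and Adgre1 among them, were at 1 TPM or more in every library, with summed levels of 5949, 4243 and 5065 TPM. B cells and dendritic cells also express class II genes: 2 of 8 B cell markers reached 1 TPM in every library, with summed levels of 12.5, 7.76 and 8.15 TPM, mostly from Cd22, and 1 of 10 dendritic cell markers did, with summed levels of 4.83, 2.37 and 3.71 TPM. Besides Cd22 the detected B cell marker was Cd79b, with 1.16 to 1.89 TPM, and Ighm had 22 to 46 counts, while Cd79a, Ms4a1 and Pax5 had 0 to 4 counts per library. The detected dendritic cell marker was Batf3, with 1.20 to 2.58 TPM; Ccr7 had 0.63 to 1.41 TPM, and Flt3, Zbtb46, Xcr1 and Clec9a were at or below 0.11 TPM in each library. No T or NK cell marker of 5 reached 1 TPM in every library, and 1 of 4 neutrophil markers did, S100a8.

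All 8 class II genes were present at 1 TPM or more in all 3 libraries, a level here called detected. By the same rule 41.4% of 22015 nuclear protein-coding genes and 17.4% of all annotated genes were detected. On the log2(TPM + 1) scale the 8 genes had a median of 4.89, set beside 3.25 for the detected protein-coding genes and 0.23 for all protein-coding genes. Levels ran over about 2 orders of magnitude within the group, with Cd74 at the top and Ciita at the bottom. Cd74 alone held 50.3% of the summed TPM of the 8 genes.

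**Figure D1:**
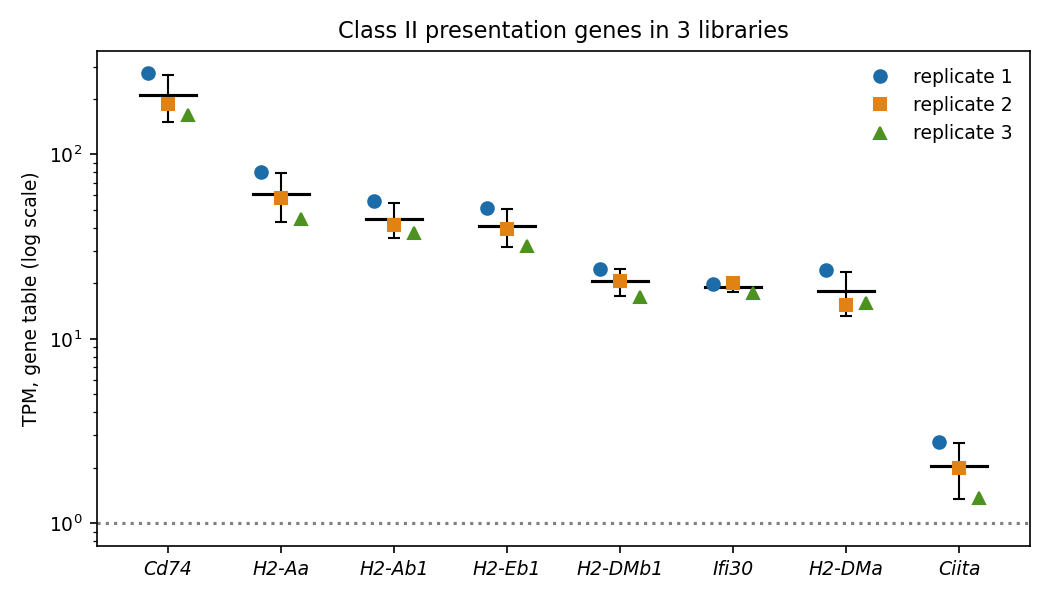
TPM of the 8 class II genes (log scale) in the 3 libraries, with replicates as coloured points, means as horizontal bars and SD as vertical bars; the dotted line marks 1 TPM. Cd74 stands at 164 to 276 TPM, the 3 chain genes at 32.1 to 80.7, H2-DMb1, Ifi30 and H2-DMa at 15.2 to 23.9, and Ciita at 1.37 to 2.74.

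Among the genes of the peptide-binding chains, H2-Aa was the highest. H2-Aa, the alpha chain of the class II molecule I-A (ENSMUSG00000036594.15, mm10 chromosome 17, 34282744 to 34287823, minus strand), had 80.7, 57.8 and 44.8 TPM in replicates 1, 2 and 3, a mean of 61.1 ± 18.2 TPM (SD, n = 3). H2-Ab1, its beta chain partner (ENSMUSG00000073421.6, chromosome 17, 34257689 to 34269419, plus strand), had 55.7, 41.5 and 37.5 TPM, a mean of 44.9 ± 9.57. H2-Aa stood above H2-Ab1 within each library, although the ranges of the 2 genes over libraries overlap. H2-Eb1, the beta chain of the second class II molecule I-E (ENSMUSG00000060586.11, chromosome 17, 34305867 to 34316674, plus strand), had 51.0, 39.6 and 32.1 TPM, a mean of 40.9 ± 9.54. It lay just under H2-Ab1 in each library of the gene table, with overlapping ranges, but in only 2 of 3 libraries of the second quantification. The gene table values rested on 2754 to 4251 expected counts per library for H2-Aa, 2347 to 3200 for H2-Ab1 and 1864 to 2879 for H2-Eb1.

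The alpha chain partner of H2-Eb1 was close to 0. C57BL/6 mice carry a haplotype known not to express the I-E alpha chain, and the annotation holds that gene only as the polymorphic pseudogene H2-Ea-ps. H2-Ea-ps (chromosome 17, 34341959 to 34344645, minus strand) had 0, 0 and 1 expected counts. At these depths 3 counts, the largest number that a count of 0 leaves possible at 95% confidence for counting error only, equal 0.0785 and 0.0648 CPM in replicates 1 and 2. H2-Eb1 messenger was thus measured at 32.1 to 51.0 TPM, from 1864 to 2879 expected counts, in libraries with at most 1 count on its alpha chain entry.

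RefSeq promoter windows on GRCm38.p6, the assembly that mm10 names, were given for 5 of the 8 genes, and 2 are shown because their start sites are the same in RefSeq and annotation M21 and they hold letters of the X or Y box, the elements of class II promoters. The lines give the 120 bases before the start site, 5′ to 3′ on the strand of the gene, with matches to the X box core (AG, any 2 bases, AC, any base, GATG) and the Y box core CCAAT, on either strand, in capitals.
H2-Eb1, chr17:34305747-34305866, plus strand: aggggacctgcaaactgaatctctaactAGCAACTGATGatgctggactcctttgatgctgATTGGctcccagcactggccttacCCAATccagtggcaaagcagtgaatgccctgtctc
H2-Aa, chr17:34287824-34287943, minus strand: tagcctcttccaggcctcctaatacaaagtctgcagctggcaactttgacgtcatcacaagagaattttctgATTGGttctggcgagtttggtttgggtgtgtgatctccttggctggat
In H2-Eb1 the X box letters lie at -92 to -82 from the start and the nearest Y box letters, on the other strand, at -59 to -55, with a second Y box core at -35 to -31. In H2-Aa the Y box letters lie at -48 to -44 on the other strand, and these X box letters do not occur in its 250 bases. H2-DMb1 has both. Its RefSeq start lies 119 bases inside the first exon of M21, so only the X box with 9 bases on either side is shown.
H2-DMb1, chr17:34153087-34153115, plus strand: ggtttacctAGTAACTGATGatgctaggc
The spacing in H2-DMb1 is close to that in H2-Eb1, with the X box letters at -95 to -85 and the Y box letters at -61 to -57 from the RefSeq start. Of 32851 RefSeq windows of 250 bases 0.816% held the X box core, 33.8% the Y box core and 0.292% both. The window of Ifi30 held neither, and its start is also the same in RefSeq and M21. The windows of H2-DMa belong to other start sites than that of its main isoform, with a Y box core in 1 of them. The gamma-activated site TTCNNNGAA was in none of these windows and in 7.02% of all. These are matches of the letters given above only. Boxes with other letters were not looked for, so a window without a match may still hold one, and binding was not measured.

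Cd74 was the most abundant class II gene by a wide margin. Cd74 (ENSMUSG00000024610.15, chromosome 18, 60803848 to 60812652, plus strand) had 276, 188 and 164 TPM in replicates 1, 2 and 3, a mean of 209 ± 58.9 TPM (SD, n = 3), from 11312 to 15832 expected counts per library. Every Cd74 value lay above every value of the other 7 genes, and its mean exceeded that of 98.1% of detected protein-coding genes. Cd74 was still far below the class I light chain gene B2m, which had 3736, 3713 and 2941 TPM.

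The 2 chains of the peptide editor H2-DM were close to each other. H2-DMa (ENSMUSG00000037649.10, chromosome 17, 34119541 to 34139101, plus strand) had 23.7, 15.2 and 15.6 TPM, a mean of 18.2 ± 4.81. H2-DMb1 (ENSMUSG00000079547.4, chromosome 17, 34153072 to 34160230, plus strand) had 23.9, 20.7 and 16.9 TPM, a mean of 20.5 ± 3.49. Neither can be ranked above the other beyond the spread between libraries. H2-DMb1 and H2-DMa were the only 2 of the 8 genes whose expected counts were not whole numbers, which shows that some of their reads were shared out between entries. The beta chain copy H2-DMb2 (chromosome 17, 34143307 to 34151555), a close paralog of H2-DMb1, had 0.44, 0.39 and 0.34 TPM. In the second quantification, made without an alignment file, H2-DMb2 had 0.18, 0.20 and 0.16 TPM, beside 8.45, 9.02 and 6.08 for H2-DMb1. Both quantifications thus put H2-DMb2 far below H2-DMb1, and the exact division of reads between the 2 copies was not tested. H2-DMa overlaps Brd2 on the other strand over 3094 bases (34119541 to 34122634), and Brd2 had 79.2 to 93.7 TPM. Strandedness of the counting is not given in the sources used here, so reads in the shared stretch cannot be told apart. The main isoform H2-DMa-205, with 90.3% of H2-DMa TPM in the transcript table made from alignments, starts at 34135628, outside that stretch. Only H2-DMa-206 and H2-DMa-208 reach into it, with 0.132% and 1.96%.

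Ifi30, the thiol reductase that opens disulfide bonds of endocytosed proteins before they are cut, was the steadiest of the 8 genes by TPM. Ifi30 (ENSMUSG00000031838.8, chromosome 8, 70762774 to 70766663, minus strand) had 19.9, 20.1 and 17.7 TPM, a mean of 19.2 ± 1.32 TPM (SD, n = 3), from 836 to 1229 expected counts. In the gene table the order of H2-DMb1, Ifi30 and H2-DMa changed from library to library, and their ranges overlap. In the read-based table, a second quantification made from the reads without an alignment file, Ifi30 was above H2-DMb1 in 3 of 3 libraries and above H2-DMa in 3 of 3.

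Ciita was the lowest of the 8 genes in every library. Ciita (ENSMUSG00000022504.10, chromosome 16, 10480059 to 10528418, plus strand) had 2.74, 2.00 and 1.37 TPM, a mean of 2.04 ± 0.686 TPM (SD, n = 3), from 437 to 742 expected counts. The ranges of H2-DMa and Ciita do not overlap, and only 8.91% of detected protein-coding genes had a mean below that of Ciita. Ciita overlaps Dexi on the other strand over 25888 bases, Dexi had 1.96 to 2.98 TPM, and reads in the shared stretch cannot be told apart without strand. The 5 chain and editor genes lie within 197 kb of chromosome 17, between 34119541 and 34316674, and the other 3 on chromosomes 8, 16 and 18.

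Ratios between partners were measured within each library on the log2(TPM + 1) scale, which draws ratios of low genes toward 0. For the gene below the line of each ratio, limma was fitted to the ratios of all 9648 detected genes to it, two-sided, with Benjamini-Hochberg adjustment. Of 10 pairs 8 passed an adjusted p of 0.05. A pass says little about a pair, since among the same 9648 genes 94.9% passed against H2-Ab1, 93.5% against H2-Eb1, 89.3% against H2-DMb1, 94.5% against H2-Aa, 100% against B2m, 99.9% against Ctss, 85.3% against Rfx5 and 100% against H2-Oa. The fits treat the spread of the common gene in these libraries as known, so their p-values are too small, and the p from limma without variance moderation, which uses each ratio's own 3 values, is given beside them.

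The chain genes differed little from each other. The ratio H2-Aa/H2-Ab1 was 0.53, 0.47 and 0.25 in replicates 1, 2 and 3, a mean log2 ratio of 0.42 ± 0.16 (SE; limma, adjusted p = 0.0103; 0.0421 without moderation). H2-Aa was the higher in 3 of 3 libraries, and the ratio was 0.39 once replicate 2 was left out (limma, adjusted p = 0.0896). The ratio H2-Ab1/H2-Eb1 was 0.14 ± 0.18 (limma, adjusted p = 0.470), positive in 3 of 3 libraries. In the read-based table it was 0.01 and positive in 2 of 3 libraries. The ratio H2-DMa/H2-DMb1 was -0.18 ± 0.16 (limma, adjusted p = 0.277), negative in 3 of 3 libraries but only -0.01 in replicate 1. Neither of these last pairs could be ordered beyond its error.

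Chaperone and editor stood on opposite sides of the chains. Cd74 exceeded H2-Aa by a log2 ratio of 1.76 ± 0.22 (limma, adjusted p = 3.28e-15; 0.0109 without moderation), with 1.76, 1.69 and 1.85 in the 3 libraries. Against H2-Ab1 the excess of Cd74 was 2.18 ± 0.16 (limma, adjusted p = 1.77e-41; 0.00585 without moderation). H2-Ab1 in turn exceeded H2-DMb1 by 1.09 ± 0.16 (limma, adjusted p = 1.08e-11; 0.0102 without moderation), with 1.19, 0.97 and 1.10 in the 3 libraries. All 3 ratios had the same sign in 3 of 3 libraries and varied by less than 0.25 between libraries. Over the same libraries the TPM of Cd74 differed 1.68-fold between replicates 1 and 3, a fold that includes the library difference in protein-coding share of TPM.

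Of 4 pairs with other genes of the presentation machinery, 3 had the member as the lower partner and 1, H2-DMa/H2-Oa, as the higher. Cd74/B2m was -3.76, -4.29 and -4.16, a mean of -4.07 ± 0.17 (SE; limma, adjusted p = 2.94e-131; 0.00164 without moderation). Ifi30 was far below Ctss, the cathepsin that removes the invariant chain, with a ratio of -5.96 ± 0.12 (limma, adjusted p = 3.78e-29; 0.000384 without moderation). Ciita was below Rfx5, a subunit of the X box factor that recruits it, with ratios of -0.42, -0.21 and -0.83 and a mean of -0.49 ± 0.15 (limma, adjusted p = 0.00136). That call depends on how the spread is treated and on replicate 3: it was lost without moderation (limma, adjusted p = 0.136), and without replicate 3 the ratio was -0.32 (limma, adjusted p = 0.153). H2-DMa exceeded H2-Oa, whose product inhibits H2-DM, by 3.92 ± 0.12 (limma, adjusted p = 2.88e-07; 0.00236 without moderation). H2-Oa was under 1 TPM, so the size of that ratio follows the pseudocount, 5.73 with 0.1 in place of 1, and it was 2.84 in the read-based table.

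Most of the 8 genes were high in replicate 1 and low in replicate 3. By TPM replicate 1 was the highest library for 7 of the 8 genes, beside 76.7% of detected protein-coding genes, and replicate 3 the lowest for 7 of 8, beside 41.9%. The first of these counts is near the background, and replicate 1 held the largest share of protein-coding TPM. On TPM rescaled over nuclear protein-coding genes, which takes 7SL RNA out of the total, replicate 1 was highest for 6 of 8 genes, beside 25.4%, and replicate 3 lowest for 6 of 8, beside 24%. On CPM with TMM normalization replicate 1 was highest for 6 of 8 genes, beside 27.6%, and replicate 3 lowest for 7 of 8, beside 38.3%. The read-based table put replicate 1 highest for 5 of 8, beside 35.6%, and replicate 3 lowest for 8 of 8, beside 58.2%. The 2 genes outside the pattern by TPM were Ifi30, highest in replicate 2, and H2-DMa, lowest in replicate 2.

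Scale differences drop out of the deviation of a library from the mean of the other 2 once it is centred on the median over detected protein-coding genes. It was negative in replicate 3 for 8 of 8 genes, with a median of -0.35 (log2) and a range of -0.69 for Ciita to -0.09 for Ifi30. In replicate 1 it was positive for 7 of 8, with a median of 0.34 and a range of -0.15 for Ifi30 to 0.49 for Ciita. Replicate 2 lay between, with a median of 0.09 and 5 of 8 positive. By construction 50% of detected genes are positive in each library, with a middle 50% between -0.13 and 0.13 in replicate 3. Ciita and the chain genes thus stood outside the middle 50% of genes on both sides, while Ifi30 was inside it in replicate 3. Summed B cell markers, at 12.5, 7.76 and 8.15 TPM, and dendritic cell markers, at 4.83, 2.37 and 3.71 TPM, were also highest in replicate 1, but not lowest in replicate 3. Summed macrophage markers, at 5949, 4243 and 5065 TPM, had the same order. These sums are not centred, and by TPM 76.7% of detected protein-coding genes were highest in replicate 1. The part of the marked cell types in the library order was not tested. Fewer cells with class II transcripts and less of them per cell cannot be told apart in such bulk libraries.

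**Figure D2:**
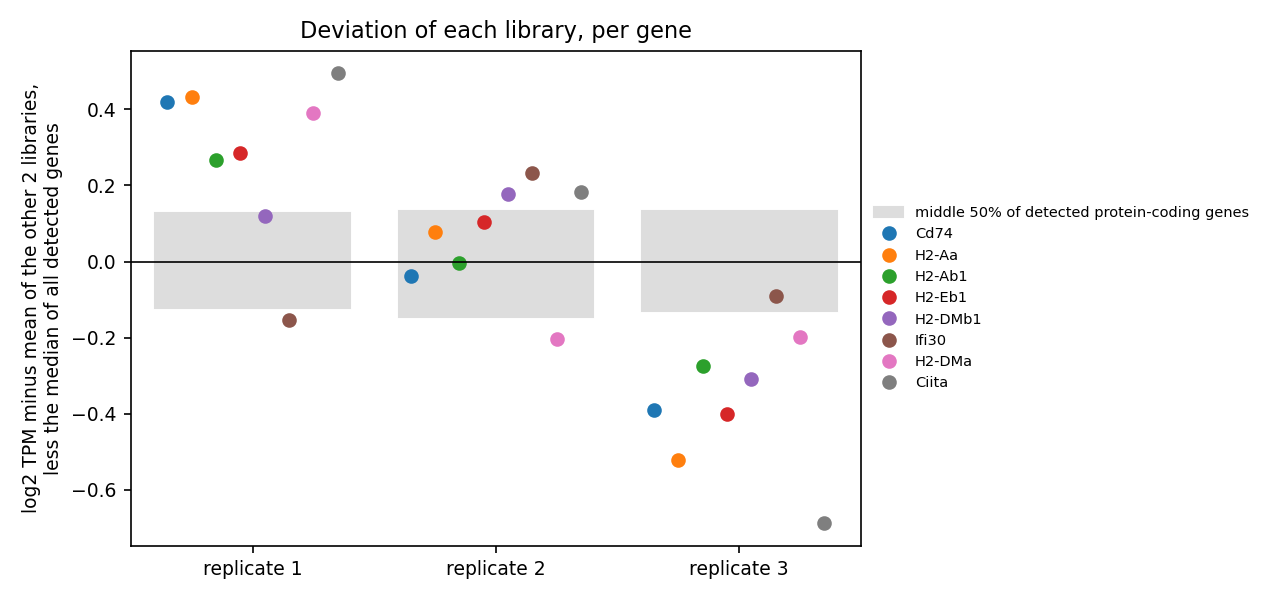
Deviation of each library for the 8 class II genes (log2 TPM minus the mean of the other 2 libraries, centred on the median of detected protein-coding genes), with grey boxes for the middle 50% of 9106 detected protein-coding genes. All 8 points of replicate 3 lie below 0, and 7 of 8 of replicate 1 above it.

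The spread of the 8 genes between libraries was close to that of other genes with enough counts. In edgeR, fitted with an intercept alone, the biological coefficient of variation was 0.142 at the median of the 8 genes, set beside 0.144 at the median of 12752 genes that passed a filter on low counts. With no filter the values were 0.143 for the 8 genes and 0.405 for 22949 genes, many of them with few counts. It ran from 0.121 for H2-Ab1 and 0.122 for Ifi30 to 0.163 for H2-Aa and 0.186 for Ciita. Ciita had the highest value of the 8 in this fit, but without replicate 3 it was 0.136, below the 0.141 of H2-DMa. On the log2(TPM + 1) scale the SD over libraries was 0.42 for H2-Aa, 0.39 for Cd74, 0.34 for H2-DMa and 0.33 for Ciita. That scale shrinks the spread of a low gene such as Ciita. In TPM Ciita differed 2-fold between replicates 1 and 3, beside 1.80 for H2-Aa, 1.68 for Cd74 and 1.52 for H2-DMa. These folds and SDs include the library difference in protein-coding share of TPM, 33.3% in replicate 1 and 27.7% in replicate 3. On rescaled TPM the differences were smaller. Ciita had 8.22 and 4.95 in replicates 1 and 3, H2-Aa 242 and 162, Cd74 828 and 592, and H2-DMa 71.2 and 56.4.

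Cd74, H2-Aa, H2-Ab1 and H2-Eb1 moved together over the libraries, with a mean log2 TPM of 6.48, 6.02 and 5.77 in replicates 1, 2 and 3, a range of 0.71. That range includes the library difference in protein-coding share of TPM, which cancels in the ratio of a gene to the mean. Likeness to this shared pattern was measured as the SD over the 3 libraries of a gene's log2 ratio to it, among 4130 protein-coding genes with a mean of 10 TPM or more. The SD was 0.0451 for H2-Eb1, 0.0474 for Cd74, 0.0726 for H2-Ab1 and 0.0729 for H2-Aa, values that contain the genes themselves, and 0.134 for H2-DMb1 and 0.148 for H2-DMa. The median of all genes was 0.261. Closest from outside the 8 were Rbm7, which encodes an RNA-binding protein, with an SD of 0.00669, the small GTPase gene Rap1a with 0.0108, Selenok, which encodes a selenoprotein of the endoplasmic reticulum, with 0.0109, the cap-binding factor gene Eif4e with 0.0139 and the antiviral gene Rsad2 with 0.0169. With 3 libraries and 4130 genes close matches are common, and 46 genes had an SD under 0.05.

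The isoform tables add what the gene levels do not show. Shares of a gene's TPM are given from the transcript table made from alignments, called alignment-based, and beside it from the table made directly from reads, called read-based, both quantifications of the same libraries. H2-Aa, H2-DMb1 and H2-Ab1 had 1 dominant coding isoform each, with 98.8% ± 0.760 for H2-Aa-201, 99.4% ± 0.968 for H2-DMb1-201 and 92.5% ± 1.35 for H2-Ab1-201 (SD, n = 3). H2-DMa-205 held 90.3% ± 3.61 of H2-DMa, and 84.7% ± 5.85 in the read-based table.

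H2-Eb1 was mostly assigned to transcripts that are not annotated as coding for the full chain. H2-Eb1-205, annotated as a target of nonsense-mediated decay, held 52.6%, 52.9% and 49.8% of H2-Eb1 TPM, a mean of 51.8% ± 1.73. H2-Eb1-204, an entry that runs 132 bases into an intron, held 27.2% ± 2.43. The coding form H2-Eb1-203 held 18.3%, 19.8% and 18.8%, a mean of 19.0% ± 0.740. The read-based table gave 52.2% ± 1.32 for H2-Eb1-205, 29.8% ± 3.10 for H2-Eb1-204 and 9.82% ± 1.94 for H2-Eb1-203, so the order was the same and the coding share was lower still. H2-Eb1-205 lacks the first 53 bases of exon 2 (chromosome 17, 34309591 to 34309643). These bases, the splice difference between the forms, are in capitals with 20 bases on either side.
H2-Eb1-203, chr17:34306028-34309663 across the intron, plus strand: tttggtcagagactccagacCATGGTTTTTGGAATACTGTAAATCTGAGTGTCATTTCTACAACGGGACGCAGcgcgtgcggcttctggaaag
H2-Eb1-205, the same ends: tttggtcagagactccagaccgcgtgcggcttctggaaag
The skipped bases end in AG, the letters that close an intron. H2-Eb1-205 is also 475 bases shorter than H2-Eb1-203 at the 3′ end and 59 bases shorter at the 5′ end. Which of these 3 differences sets its share cannot be told apart in these tables, and reads over the junction were not analysed here.

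Ifi30 showed how far a share can depend on the method. Ifi30-201 and Ifi30-202 differ by 1 base (chromosome 8, 70764764), which annotation M21 leaves out of Ifi30-201 by splitting an exon; Ifi30-202 carries a sequence-error tag, and the gene is typed as a processed transcript, although RefSeq lists it as protein-coding. The base is in capitals, with 14 bases on either side.
Ifi30-201, chr8:70764750-70764778, minus strand: gtacgtgggagttcacgtgccagcacgg
Ifi30-202, the same ends: gtacgtgggagttcCacgtgccagcacgg
Ifi30-202 held 41.2%, 55.8% and 20.6% of Ifi30 TPM in the alignment-based table, a mean of 39.2% ± 17.7, and 0.170% in the read-based table. The split between the 2 entries is therefore uncertain, and the level of Ifi30 above is that of both together.

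Ciita is known to be transcribed from several promoters, each with its own first exon, whose use differs between cell types. Grouped by first exon, isoforms starting at 10488178 to 10488424 held 65.0%, 69.5% and 72.8% of Ciita TPM, a mean of 69.1% ± 3.93 (SD, n = 3). Those starting at 10489746 to 10489864 held 24.4% ± 3.22, and those starting furthest upstream, at 10480059 to 10480426, held 6.56% ± 0.710. The read-based table kept that order, with 51.8% ± 4.08, 38.8% ± 2.91 and 9.31% ± 1.41. The annotation names no promoter type for these exons, and none is assigned here. Ciita-201, which makes up most of the leading group at 65.6% ± 5.43, alone carries 1992 further bases at the 3′ end, so first-exon use and 3′ end cannot be told apart. The group starting at 10489746 to 10489864 rests in large part on short entries. Ciita-204 (1620 bases, 2 exons) held 10.7% ± 5.80, from 11 to 36 expected counts per library. Ciita-208 (680 bases) held 5.90% ± 3.67, from 1.11 to 7.5 counts, and 18.1% ± 2.95 in the read-based table. The 19-exon Ciita-203 held 7.80% ± 1.87. Few counts on short entries thus limit what the share of this group says about first-exon use.

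Cd74 TPM was mostly split between 2 coding forms, Cd74-201 and Cd74-202. Cd74-202 differs from Cd74-201 by a 192-base exon (chromosome 18, 60811294 to 60811485), which adds to the invariant chain a thyroglobulin type-1 domain known to inhibit cathepsin L. Cd74-202 held 18.7%, 22.5% and 24.5% of Cd74 TPM in replicates 1, 2 and 3, a mean of 21.9% ± 2.97, and 24.9% ± 3.18 in the read-based table. In both tables the share was lowest in replicate 1 and highest in replicate 3, opposite to the order of the gene's level. The only other difference between the isoforms is 6 bases at the 3′ end, so the share rests on the extra exon.

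**Figure D3:**
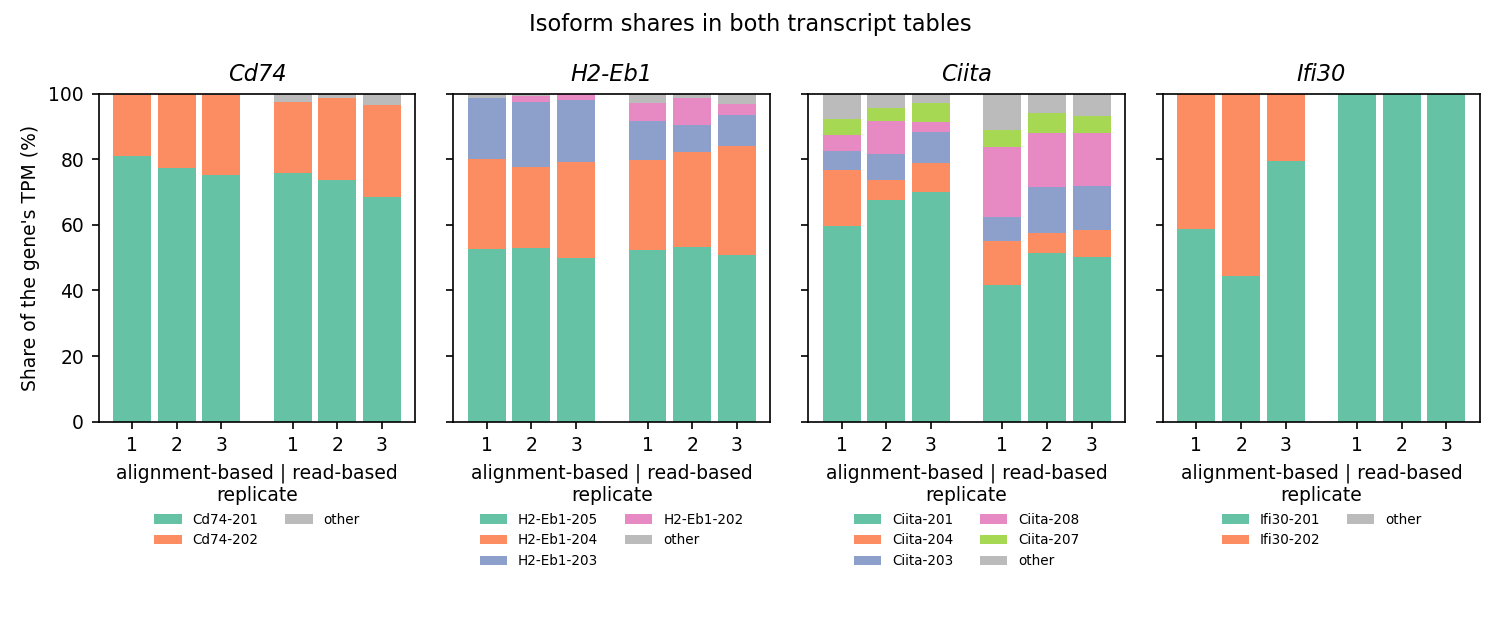
Share of a gene's TPM (percent) held by each isoform of Cd74, H2-Eb1, Ciita and Ifi30 in replicates 1, 2 and 3, in the alignment-based table on the left and the read-based table on the right of each panel, with isoforms under 5% in both tables pooled as other. Shares of Cd74 and of H2-Eb1-205 are alike in both tables, whereas Ifi30-202 is 20.6% to 55.8% in the first and near 0 in the second.

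Around the 8 genes, a list of 50 other genes of the pathway was measured, of which 49 matched a gene and 44 were detected. The median of the list was 5.41 (log2 of TPM + 1). By the same rule 41.4% of nuclear protein-coding genes were detected. The median was 3.25 for detected protein-coding genes and 0.23 for all protein-coding genes. The same background holds for the lists below. The class II paralogs were the exception. None of the 4 matched, H2-DMb2, H2-Oa, H2-Ob and H2-Eb2, was detected, and the listed H2-Ea matched no gene by symbol. H2-Oa, the alpha chain of the H2-DM inhibitor H2-O, had 0.31, 0.23 and 0.18 TPM, and its beta chain H2-Ob had 0.04, 0.03 and 0.04 TPM. Both chains of H2-O were under 1 TPM in every library in this table. In the read-based table H2-Oa had 0.11, 0.12 and 0.07 TPM, whereas H2-Ob was higher than in the gene table, with 0.998, 0.277 and 0.844 TPM, so the level of H2-Ob depends on the quantification.

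The list of proteases that prepare antigen and cut the invariant chain, which also holds the cathepsin inhibitor gene Cst3, had a median level of 8.59 (log2), above the 4.89 of the class II genes. All 10 of its genes were detected, led by Ctsd at 2509 ± 12.7 TPM (SD, n = 3) and Ctsb at 2070 ± 268. Ctss, with 1428, 1256 and 1095 TPM, exceeded Ctsl, the cathepsin that cuts the invariant chain in thymic epithelium, with 140, 110 and 103 TPM. Lgmn, an asparaginyl endopeptidase of lysosomes, had 680 ± 48.4 TPM, and Sppl2a, which clears the last membrane-bound stub of the invariant chain, had 64.7 ± 15.2 TPM.

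The subunits of the X box factor were present at low levels, like Ciita. All 12 transcription genes on the list were detected, with a median of 3.79 (log2). The X box factor subunits Rfx5, Rfxap and Rfxank had 3.24 ± 0.770, 4.52 ± 0.397 and 3.11 ± 0.246 TPM. Of the Y box factor subunits, Nfya had 23.6 ± 3.01 TPM, Nfyb 2.64 ± 0.307 and Nfyc 6.62 ± 0.565. Irf1, which acts in the interferon gamma response of Ciita, was much higher at 165 ± 61.9 TPM. Ifng itself had 0, 0 and 4 counts, while its receptor genes Ifngr1 and Ifngr2 had 34.2 ± 3.44 and 40.9 ± 11.0 TPM.

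Genes that act on finished class II molecules were detected throughout. All 8 genes of turnover and trafficking were detected, with a median of 5.67 (log2). March1, whose ubiquitin ligase sends class II molecules to lysosomes, had 49.1, 35.3 and 41.2 TPM, and Cd83, whose product opposes that ligase, had 75.4, 68.3 and 37.1 TPM. The 2 genes stood in different orders over the libraries, with Cd83 below March1 only in replicate 3. All 5 tetraspanin genes were detected, with Cd63 the highest at 235 ± 23.7 TPM. Of the Cd74 partners, the ligand gene Mif had 84.9 ± 8.77 TPM and the signalling co-receptor gene Cd44 33.6 ± 4.17 TPM. The class I genes B2m, H2-K1 and H2-D1 had a median of 11.1 (log2), and each was above every class II gene.

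**Figure D4:**
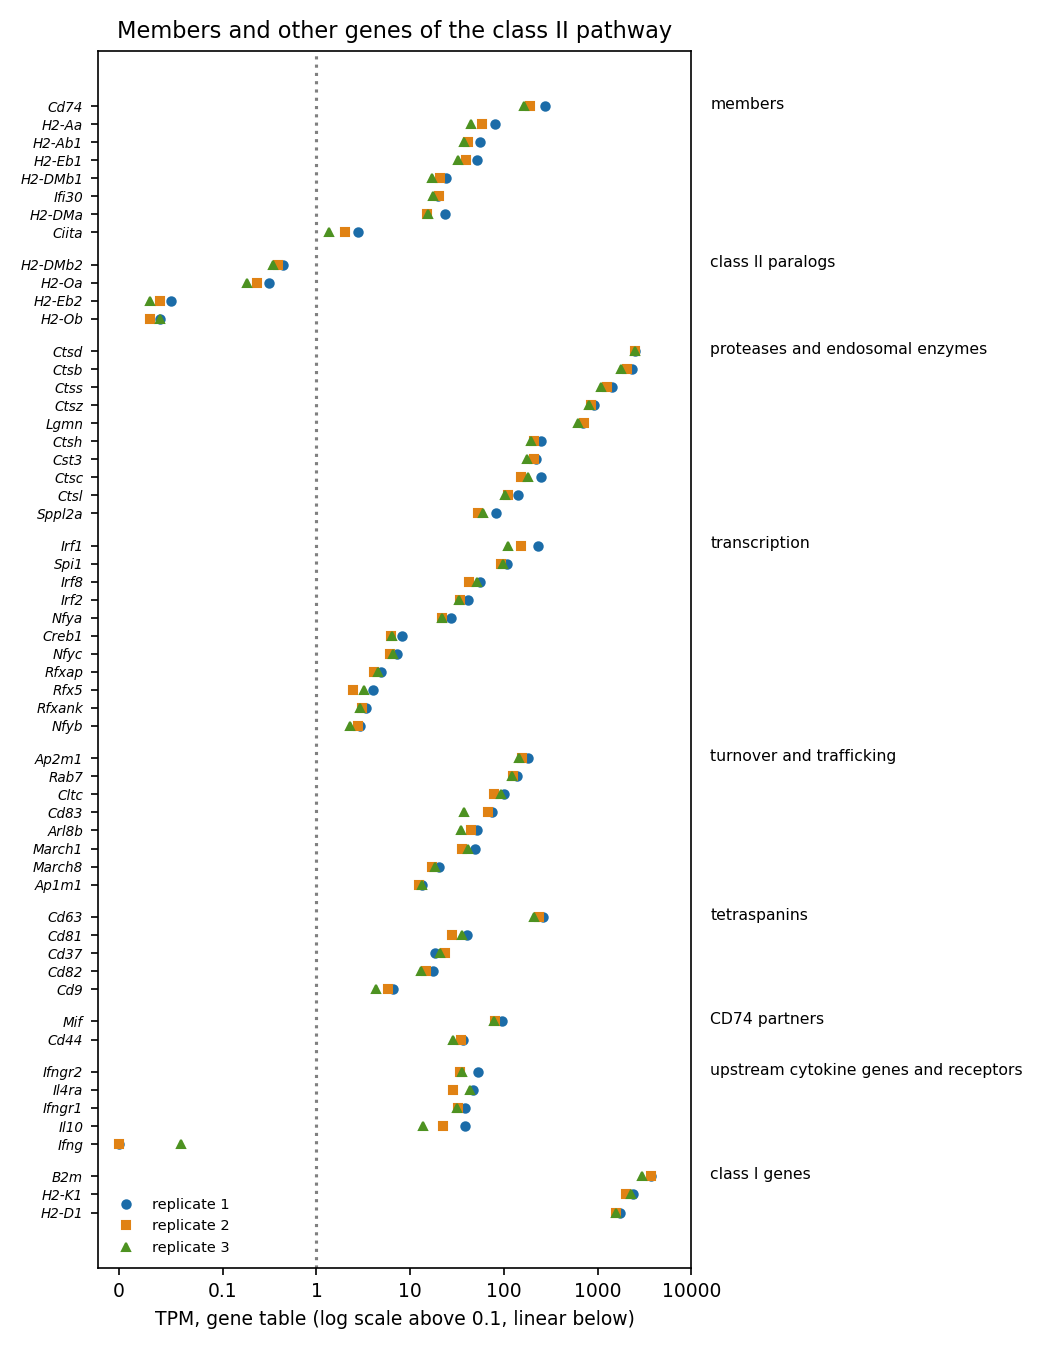
TPM (log scale above 0.1, linear below) of the 8 class II genes, in the top block, and of genes of the pathway list grouped by role, with 1 point per replicate; the dotted line marks 1 TPM. The class II paralogs lie left of the line at 0.03 to 0.44 TPM, and proteases and class I genes at the right.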

How the data were processed

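Per library, 3 kinds of deposited table were used here. Per the file headers the deposited gene table, in the column layout of RSEM, holds expected counts, TPM and FPKM, and the deposited columns with the posterior SD of the count and the bounds of TPM, read as a signal, were not used in any result. The deposited transcript tables hold estimated counts and TPM from alignments (alignment-based) or from reads and an index (read-based, kallisto layout). Accompanying text files name mm10 and annotation M21; the sources used here name no aligner, quantifier or version. Entries that name no gene held 0.104% to 0.356% of expected counts and were left out.

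The 8 genes, the lists and the pairs were chosen with earlier results of these data known. A gene was detected where TPM reached 1 in every library. Pair ratios were tested with limma 3.58.1 on log2(TPM + 1), and spread came from edgeR 4.0.16 (R 4.3.3) after TMM and filterByExpr, with expected counts rounded first; DESeq2 1.42.0 was an alternative. Genes named were the 8, the pathway list, the pairs, and the 5 protein-coding genes nearest to the shared pattern of Cd74, H2-Aa, H2-Ab1 and H2-Eb1; genes that overlap a member, the pseudogene H2-Ea-ps and the cell type markers were named in addition. Some genes of the lists are not reported here. Promoter sequences are from RefSeq and transcript sequences from M21. The limma and edgeR steps were tested on simulated data. Alternatives covered pseudocount, FPKM, the read-based table, filters, rescaled TPM and each library left out.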

Additional observations from a re-analysis of the deposited data

How the results depend on the processing

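No paired analysis was possible because there is 1 group of 3 libraries and no second group to pair with. Of the alternative values of the main results 122 kept their direction and side of the threshold or moved little, 11 moved and 3 lost the call, and none reversed. With 1 library left out the log2 ratio H2-Aa/H2-Ab1 was 0.36 to 0.50, with 0.39 without replicate 2 (limma, adjusted p = 0.0896). Ciita/Rfx5 kept -0.49 but lost the call without variance moderation (limma, adjusted p = 0.136), and was -0.63 to -0.32 with 1 library left out, -0.32 without replicate 3 (limma, adjusted p = 0.153). The median TPM of the 8 genes was 30.7, 103 on TPM rescaled over nuclear protein-coding genes, and 13.5 in the read-based table. The median coefficient of variation of 0.142 was 0.143 with no filter, 0.140 with DESeq2 and 0.122 to 0.144 with 1 library left out. The median of all genes fitted, 0.144, was 0.405 with no filter, 0.139 with DESeq2 and 0.128 to 0.161 with 1 library left out. In the read-based table H2-Eb1-203 held 9.82%, Ifi30-202 0.170%, Ciita-201 47.8% and H2-DMa-205 84.7%; the cause was not tested. Rescaling TPM, DESeq2 dispersion and the lack of moderation act on scale or spread by construction. Depth limits the reading of H2-Ob, H2-Eb2 and H2-Ea-ps, at 0 to 9 counts per library. TPM ratios between genes carry errors of length and mappability that replicates share.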

Other observations

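Among the detected pathway genes, the anti-inflammatory cytokine gene Il10, whose product is known to hold class II molecules inside the cell, had the largest fold between replicates 1 and 3, 2.78 in TPM, with 38.0, 22.4 and 13.7 TPM in replicates 1, 2 and 3. Irf1 had 232, 152 and 111 TPM. On TPM rescaled over nuclear protein-coding genes Il10 had 114, 79.7 and 49.4, and Irf1 697, 540 and 400.0, so both kept that order. Cd83 did not, with 75.4, 68.3 and 37.1 TPM but 226, 244 and 134 rescaled TPM. Ctsd had 2523, 2505 and 2499 TPM but 7573, 8930 and 9036 rescaled TPM. With 1 group of 3 libraries these are descriptions, and no relation between the genes was tested.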
